A study of Homo sapiens with 12 samples.

Results

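The tumour necrosis factor (TNF) superfamily ligands TNFSF4, TNFSF18, TNFSF9, TNFSF10, TNFSF12 and TNFSF15 were read by symbol from both count tables of the series, which makes 6 genes of the 56104 gene IDs listed. All 6 were found in both tables. They were chosen by their log2 fold changes between KO and Ctrl in both assays, with the neighbourhood of TNFSF4 and TNFSF18 in view, so those values are given as a description with no p. Counts of ligands called in the fits over all genes are part of that description and nothing is read from them. The cells were HCT116, a colorectal carcinoma line kept under 15 passages, either with a knockout of the nuclear phosphatase gene PPM1G (KO) or as the control line (Ctrl). Newly made RNA was caught by 4sU-seq, in which cells took up 500 µM 4-thiouridine for 10 min and the labelled RNA was biotinylated and pulled down, and total RNA was measured by RNA-seq. Each genotype had 3 libraries per assay, 12 in all. The labels used here do not say whether the KO cells are 1 clone, which site was edited, or whether the assays shared cultures. The 4sU-seq dishes were seeded as biological replicates, while nothing says that the RNA-seq libraries came from separate cultures, so p-values there measure the spread between these libraries.

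TNF superfamily ligands are trimeric proteins, most of them anchored in the cell membrane, that engage receptors of the TNF receptor superfamily on neighbouring cells. TNFSF4 (OX40 ligand), TNFSF18 (GITR ligand) and TNFSF9 (CD137 ligand) are known as costimulators of T cells through TNFRSF4, TNFRSF18 and TNFRSF9, and are best known from antigen-presenting cells. TNFSF10 (TRAIL) can trigger apoptosis through the death receptors TNFRSF10A and TNFRSF10B, TNFSF12 (TWEAK) binds TNFRSF12A, and TNFSF15 (TL1A) binds TNFRSF25.

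The 4sU-seq libraries held 79403238 to 101884166 gene counts and the RNA-seq libraries 30962756 to 42479828, so that 3 counts, used as the floor of detection, stood for 0.0294 to 0.0378 CPM (counts scaled to a common library size) in 4sU-seq and 0.0706 to 0.0969 CPM in RNA-seq. CPM were scaled by TMM, a scaling that assumes most genes unchanged. PPM1G itself had 98.9, 144 and 104 CPM in KO 4sU-seq libraries, against 242, 271 and 235 CPM in Ctrl, and 97.9, 95.0 and 98.0 CPM in KO RNA-seq libraries, against 326, 293 and 331 CPM in Ctrl. Its log2 fold change of KO over Ctrl was -1.11 ± 0.17 in 4sU-seq (SE, adjusted p = 0.00717, edgeR quasi-likelihood test with Benjamini-Hochberg adjustment) and -1.71 ± 0.06 in RNA-seq (adjusted p = 1.77e-10). The summed level of 6 epithelial markers was 1196 to 2030 CPM in KO and 1331 to 1641 CPM in Ctrl 4sU-seq libraries, with CDX1 at 0 in every group but Ctrl 4sU-seq. In RNA-seq this sum was 2576.5 to 2688.1 CPM in KO and 2754.5 to 3156.6 CPM in Ctrl libraries, without overlap. The leukocyte marker PTPRC reached at most 0.131 CPM in any library, the summed T and NK cell markers 0.216 CPM and the summed B cell markers 0.601 CPM. The summed myeloid markers stood at 4.23 to 4.73 CPM in KO and 4.41 to 4.96 CPM in Ctrl 4sU-seq libraries. In RNA-seq they stood at 1.06 to 1.10 CPM in KO and 0.778 to 0.896 CPM in Ctrl. The summed endothelial markers stood at 12.6 to 12.8 CPM in KO and 5.85 to 6.55 CPM in Ctrl 4sU-seq libraries. In RNA-seq the endothelial sum was 0.498 to 0.683 CPM in KO and 0.162 to 0.418 CPM in Ctrl. The summed fibroblast markers stood at 9.76 to 11.1 CPM in KO and 4.28 to 6.28 CPM in Ctrl RNA-seq libraries, with COL1A2 and DCN at 0 in both. In 4sU-seq the fibroblast sum was 9.72 to 13.7 CPM in KO and 5.00 to 5.94 CPM in Ctrl. The part of these markers in the results below was not tested, and in bulk samples fewer cells of a kind and less RNA per cell cannot be told apart. Among 4sU-seq libraries KO replicate 2 stood apart: its counts differed from those of the other KO replicates with a chi-square per degree of freedom of 303 and 400, against 31.4 between those replicates. RNA-seq KO replicates 1 and 2 were closer to each other (1.71) than any other pair of one group (10.5 or more).

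TNFSF4 and its neighbour TNFSF18 were present in Ctrl cells and nearly gone from KO cells in total RNA. Both genes lie on the minus strand of chromosome 1 in GENCODE 29 (hg38), TNFSF4 at chr1:173183734-173207313 and TNFSF18 at chr1:173039960-173050963, with 132.771 kb between them. TNFSF4 had 10, 8 and 4 RNA-seq counts in KO libraries (0.273, 0.205 and 0.124 CPM), against 590, 516 and 505 counts in Ctrl (14.6, 15.4 and 16.4 CPM). Every KO library lay far below every Ctrl library, and the KO level of 0.201 ± 0.074 CPM (SD, n = 3) still stood above the floor. The log2 fold change was -6.22 ± 0.16 (SE), which is 74.3-fold lower in KO, and the counts alone limit the ratio of summed counts to 49.5- to 120-fold (exact 95% interval, counting error only). In 4sU-seq TNFSF4 had 88, 46 and 77 counts in KO libraries (0.886, 0.551 and 0.893 CPM), against 1081, 833 and 854 counts in Ctrl (10.9, 10.1 and 10.4 CPM). The groups did not overlap there either. Groups without overlap were common, at 38.4% of all genes tested in 4sU-seq and 56.1% in RNA-seq. The log2 fold change of TNFSF4 in 4sU-seq was -3.74 ± 0.22, or 13.4-fold lower in KO. Without KO replicate 2, the lowest of the KO 4sU-seq libraries for TNFSF4, it was -3.62 ± 0.12.

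TNFSF18 had 0, 1 and 1 RNA-seq counts in KO libraries, against 134, 109 and 114 counts in Ctrl (3.31, 3.26 and 3.70 CPM). The sums of 2 KO and 357 Ctrl counts, set against the TMM-scaled library sizes, give a ratio of Ctrl over KO of 183. Its exact 95% counting interval was 50.4 to 1520. The KO level of 0.0189 CPM was under the floor of 0.0297 CPM for the group, so its size within KO cells was not measurable at this depth. In the 4sU-seq table TNFSF18 was listed at 0 in all 6 libraries, Ctrl included, although Ctrl cells held its RNA. Its whole span of 11.004 kb lies inside RP1-15D23.2 (AL031599.1 in GENCODE 29), a long noncoding RNA gene of 288 kb on the plus strand at chr1:172775905-173064015. That gene had 95.4 CPM in KO and 125 CPM in Ctrl 4sU-seq libraries and did not pass the test (log2 fold change -0.39 ± 0.40, adjusted p = 0.549, edgeR). In RNA-seq it had 0.0415 CPM in KO and 0.0364 CPM in Ctrl.

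The promoters of the 2 neighbours are shown because both were low together in KO RNA-seq, each from 250 bases before to 50 bases after the RefSeq start (GRCh38.p14, minus strand, 5′ to 3′), TNFSF4 at chr1:173205483-173205782 and TNFSF18 at chr1:173050892-173051191.
TNFSF4: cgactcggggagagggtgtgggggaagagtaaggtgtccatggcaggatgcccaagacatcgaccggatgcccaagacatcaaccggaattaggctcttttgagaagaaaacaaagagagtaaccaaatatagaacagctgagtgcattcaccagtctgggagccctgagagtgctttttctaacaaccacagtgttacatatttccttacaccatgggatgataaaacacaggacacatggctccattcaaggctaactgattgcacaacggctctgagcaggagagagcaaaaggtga
TNFSF18: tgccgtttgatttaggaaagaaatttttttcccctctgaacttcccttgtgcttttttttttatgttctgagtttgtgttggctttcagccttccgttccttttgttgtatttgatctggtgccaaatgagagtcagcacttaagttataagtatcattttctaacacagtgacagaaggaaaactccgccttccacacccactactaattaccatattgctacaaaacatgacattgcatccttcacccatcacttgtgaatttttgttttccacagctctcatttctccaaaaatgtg
Neither holds a match on either strand to TATAAA (the TATA box), a loose NF-kappaB pattern (GGG and CC with any 5 bases between), TGANTCA (the AP-1 pattern) or an interferon-response-like pattern (GAAA and GAAA with any 2 bases between), so no base is in capitals. Of the 35116 promoters in the same table, 11.5%, 58.7%, 7.71% and 3.57% hold these patterns, in that order. The G and C content was 48.3% for TNFSF4 and 38.0% for TNFSF18. The TNFSF4 window lies wholly inside the gene span given above and does not hold the start of that span at chr1:173207313. For TNFSF4 the lack of a match thus holds for the window at the RefSeq start alone, and the start of the span was not matched. The TNFSF18 window holds the start of its span at chr1:173050963. These letters describe the windows and say nothing of the factors.

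**Figure D1:**
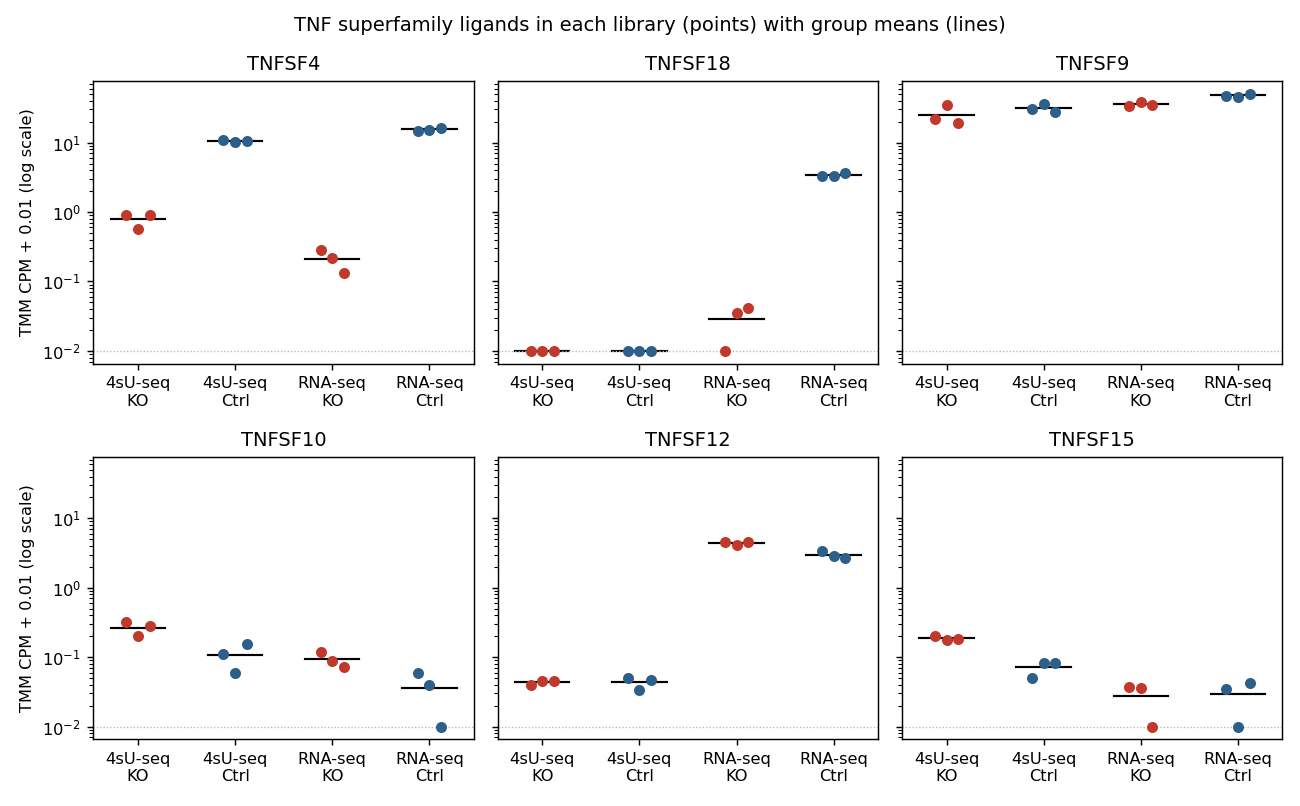
TMM CPM plus 0.01 on a log axis for the 6 ligands in every library (red, KO; blue, Ctrl), with group means as black lines and the dotted line marking a count of 0. TNFSF4 lies at 0.124 to 0.893 CPM in KO and 10.1 to 16.4 CPM in Ctrl across both assays, TNFSF18 has counts in RNA-seq alone, and TNFSF9 stays above 18 CPM in every library.

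The absence of TNFSF18 from 4sU-seq counts went with its position wholly inside another gene. Among genes with a mean of at least 50 RNA-seq counts and a span that no other annotated gene touches, 27 of 4595 (0.588%) had no count in any 4sU-seq library. Among those whose span is wholly covered by other genes, 1422 of 1508 (94.3%) had none. The share was 95.4% of 950 genes covered by opposite-strand genes and 96.5% of 565 covered by same-strand genes. In the class covered from 50% to under 100%, which holds TNFSF12, 51 of 1135 genes (4.49%) had none. A share at exactly 0 does not show a partial loss of counts. TNFSF12, with 208 of its 9000 bases free, had 9 4sU-seq counts in each genotype, against 474 in KO and 313 in Ctrl RNA-seq libraries. Its 4sU-seq value is likewise not read as how much of it was newly made. The sources used here name neither the counting feature nor the strand setting behind the tables. A 4sU-seq value of 0 for a wholly covered gene is therefore no measure of how much of it was newly made, and the TNFSF4 span, which no annotated gene touches, is not subject to this.

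**Figure D2:**
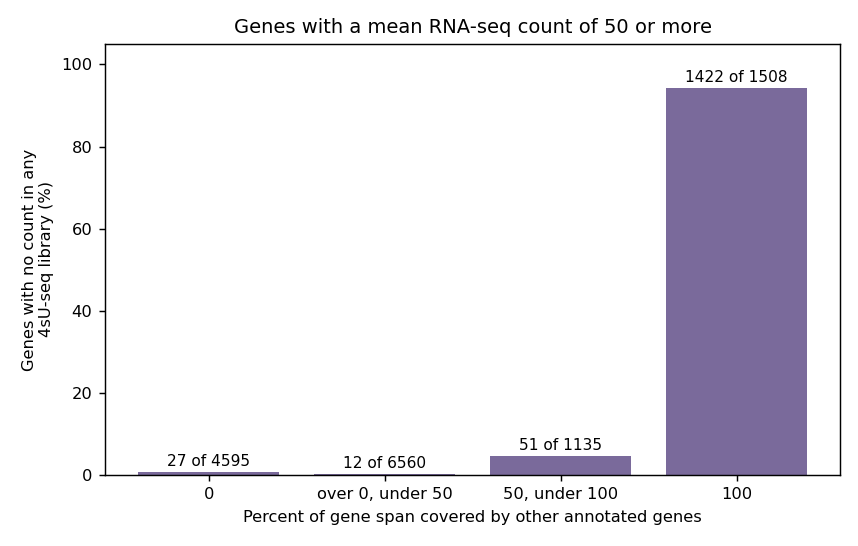
Percent of genes with no count in any of the 6 4sU-seq libraries, by how much of their span other GENCODE 29 genes cover, for genes with a mean RNA-seq count of 50 or more; numbers over the bars give genes at 0 of all genes in the class. The share is 0.588% with no cover and 94.3% with full cover.

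Of the genes tested around TNFSF4, none but TNFSF18 had a difference near its size. Within 1 Mb of its start the tables hold 37 other genes, TNFSF18 among them. In RNA-seq, 16 genes besides TNFSF18 were tested: 4 rose, 5 fell and 7 did not pass, with log2 fold changes between -0.84 and 1.14 and a median of -0.13, against a median of 0.00 over all genes tested. The median of these genes turned to 0.06 when scaled by library size alone. Without RNA-seq KO replicate 2 the count that rose was 1, without KO replicate 1 or 3 it was 2, and without Ctrl replicate 2 it was 6. In all of RNA-seq 48.4% of 20415 genes tested passed, 21.5% higher and 26.8% lower in KO. The lowest was PRDX6, an antioxidant peroxiredoxin whose start lies 270 kb from that of TNFSF4, with 170 CPM in KO and 305 CPM in Ctrl (-0.84 ± 0.06, adjusted p = 1.38e-07, edgeR). ANKRD45 rose (1.14 ± 0.27, adjusted p = 0.00373, edgeR), and so did the noncoding RC3H1-IT1 (0.87 ± 0.25, adjusted p = 0.0122). Both passed the filter through their KO libraries alone, so being tested depended on the higher group. The RC3H1-IT1 call was lost by the DESeq2 Wald test (adjusted p = 0.0683) and without KO replicate 2 (adjusted p = 0.0564, edgeR). Other genes cover the whole span of RC3H1-IT1, which was listed at 0 in every 4sU-seq library. KLHL20, which encodes a substrate adaptor of a ubiquitin ligase, fell (-0.47 ± 0.06, adjusted p = 2.27e-05), as did CENPL, a centromere protein (-0.45 ± 0.06, adjusted p = 4.23e-05). FASLG, the next ligand gene of the superfamily on this chromosome, was at 0 in every RNA-seq library and had 1 KO count and 1 Ctrl count in 4sU-seq.

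In 4sU-seq, 21 of the other genes in the window were tested. None rose past the threshold (edgeR, 1 at an unadjusted p under 0.05 and none by DESeq2), 4 fell and 17 did not pass, with a median of -0.01, against 0.05 over all genes tested. In all of 4sU-seq 19.6% of 21236 genes tested passed, 12.6% higher and 6.98% lower. PRDX6 fell in this assay too, to 114 CPM in KO, against 193 CPM in Ctrl (-0.76 ± 0.18, adjusted p = 0.0317, edgeR), and so did CENPL (-0.63 ± 0.13, adjusted p = 0.0191) and GAS5-AS1 (-0.51 ± 0.11, adjusted p = 0.0224). These calls were lost, with 0 genes in the window passing, under ERCC scaling and without KO replicate 1 or any one of Ctrl replicates 1, 2 and 3. Without KO replicate 3, 1 fell, and without KO replicate 2, 4 rose and 5 fell. Under library size alone 2 fell.

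**Figure D3:**
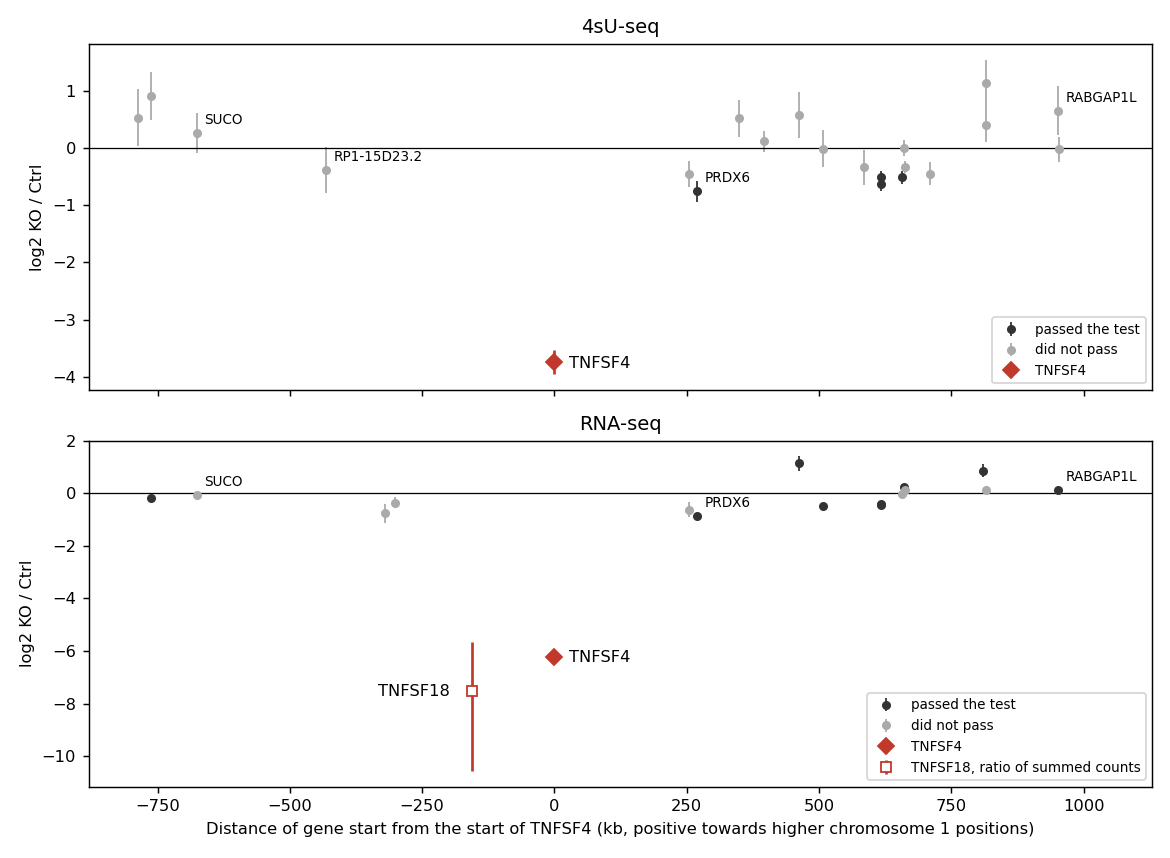
Log2 fold change of KO over Ctrl (points, with SE as bars) of every tested gene whose start lies within 1 Mb of that of TNFSF4, by distance in kb; 4sU-seq above, RNA-seq below. TNFSF4 is the diamond at -3.74 and -6.22, TNFSF18 is drawn from its summed counts with the exact 95% counting interval, and the other genes lie between -0.84 and 1.14.

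TNFSF9 was the most abundant of the 6 ligands and was moderately lower in KO total RNA. It is a gene of 4.93 kb on the plus strand at chr19:6530999-6535928 (hg38). In RNA-seq it had 33.5, 37.9 and 34.9 CPM in KO libraries, against 47.6, 45.5 and 50.3 CPM in Ctrl. The groups were without overlap, as were those of 56.1% of all genes tested in RNA-seq. The log2 fold change was -0.43 ± 0.06. In 4sU-seq it had 21.9, 34.3 and 18.9 CPM in KO libraries, against 31.0, 35.5 and 27.4 CPM in Ctrl. The groups overlapped through KO replicate 2, and the log2 fold change was -0.32 ± 0.24, with a 95% interval of -0.91 to 0.26. Without KO replicate 2 it was -0.69 ± 0.13. Ctrl replicate 2 was likewise the highest of its group, and with replicate number as a block the value was -0.36 ± 0.14. Of the gene's nearest neighbours, the tubulin gene TUBB4A rose in RNA-seq (0.35 ± 0.08, adjusted p = 0.00162, edgeR), and CD70, itself a TNF superfamily ligand, passed in neither assay.

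The TNFSF9 promoter at chr19:6530776-6531075 (RefSeq, GRCh38.p14, plus strand) is shown as a contrast to those of TNFSF4 and TNFSF18, with every match to the 4 patterns in capitals.
TNFSF9: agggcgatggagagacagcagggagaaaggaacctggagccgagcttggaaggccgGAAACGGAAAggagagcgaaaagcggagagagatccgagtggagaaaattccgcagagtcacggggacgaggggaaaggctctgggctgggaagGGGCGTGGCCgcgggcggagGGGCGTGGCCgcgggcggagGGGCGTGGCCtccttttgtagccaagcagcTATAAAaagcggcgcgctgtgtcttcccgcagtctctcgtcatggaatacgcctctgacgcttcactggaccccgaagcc
It holds TATAAA with its first base at -30 from the start, and GAAACGGAAA at -194 as a match to the interferon-response-like pattern. GGGCGTGGCC at -100, -80 and -60 matches the loose NF-kappaB pattern. None of these matches overlap, and none is read as a binding site. Of the 35116 promoters, 11.5% hold TATAAA, 58.7% the loose NF-kappaB pattern and 3.57% the interferon-response-like pattern. Its G and C content was 63.3%. The TNFSF10 promoter holds TATAAA at -31, GGGTGGGGCC at -93 (the loose NF-kappaB pattern) and, for the interferon-response-like pattern on the other strand, TTTCAGTTTC at -187. The TNFSF15 window at chr9:114792481-114792780 lies wholly inside the gene span and does not hold the start of that span at chr9:114806126. This window holds TGAGTCA at -120 from the RefSeq start. The start of the TNFSF15 span was not matched, nor was TNFSF12.

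TNFSF12 was the tested ligand that stood higher in KO total RNA. It had 169, 158 and 147 RNA-seq counts in KO libraries (4.61, 4.06 and 4.57 CPM), against 138, 94 and 81 counts in Ctrl (3.40, 2.81 and 2.63 CPM). The groups did not overlap, which held for 56.1% of all genes tested in RNA-seq, and the log2 fold change was 0.57 ± 0.13. Of its 9.00 kb span on the plus strand at chr17:7548891-7557890, 97.7% is shared with the readthrough gene TNFSF12-TNFSF13 on the same strand, so reads from these genes cannot be fully separated. The readthrough gene itself held 7 KO and 1 Ctrl RNA-seq counts. In 4sU-seq TNFSF12 had 3, 3 and 3 counts in KO libraries, against 4, 2 and 3 in Ctrl, about at the floor of 3 counts, and was not tested. TNFSF13 (APRIL), the next ligand gene in this cluster, rose in RNA-seq, with 0.683, 0.693 and 0.933 CPM in KO libraries, against 0.345, 0.388 and 0.357 CPM in Ctrl (1.07 ± 0.25, adjusted p = 0.00316, edgeR), and other genes cover 99.8% of its span. POLR2A, the large subunit of RNA polymerase II and the neighbour on the other side, fell in RNA-seq (-0.41 ± 0.06, adjusted p = 7.13e-05, edgeR).

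TNFSF10 and TNFSF15 were low in both assays. TNFSF10, at chr3:172505508-172523507, had 31, 16 and 23 4sU-seq counts in KO libraries, against 10, 4 and 12 in Ctrl. Each KO library was higher than each Ctrl library, and the log2 fold change was 1.38 ± 0.38. TNFSF15, at chr9:114784635-114806126, had 19, 14 and 15 counts in KO libraries, against 4, 6 and 6 in Ctrl, again without overlap (1.53 ± 0.28). Both values rest on few counts, and 38.4% of all genes tested in 4sU-seq had groups without overlap. In RNA-seq both were below the filter: TNFSF10 had 9 counts over the KO libraries and 3 over Ctrl, a ratio of 2.92 with an exact 95% interval of 0.729 to 16.8, and TNFSF15 had 2 counts in each genotype, a ratio of 0.973 with an interval of 0.0705 to 13.4. No difference in total RNA was detectable at that depth. Of the TNFSF15 neighbours, RP11-402G3.3 (TEX48) rose in 4sU-seq (1.39 ± 0.20, adjusted p = 0.00632, edgeR) and DEC1 fell (-1.23 ± 0.23, adjusted p = 0.0152), both at under 1 CPM. RP11-402G3.3 passed the filter through its KO libraries alone, so being tested depended on the higher group. NCEH1 next to TNFSF10 fell in RNA-seq (-0.74 ± 0.06, adjusted p = 4.67e-07, edgeR).

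Counted together, 4 of the 6 ligands were tested in 4sU-seq, where 2 were higher (TNFSF10 and TNFSF15), 1 lower (TNFSF4) and 1 not called (TNFSF9), beside 19.6% of all genes called. In RNA-seq 4 were tested, 1 higher (TNFSF12) and 3 lower (TNFSF4, TNFSF18 and TNFSF9), beside 48.4% of all genes called. The ligands were chosen with these contrasts in view, so nothing is read from these counts. In addition, TNFSF10 and TNFSF15 passed the filter in 4sU-seq through their KO libraries alone. TNFSF4 and TNFSF18 passed it in RNA-seq through their Ctrl libraries alone. For these, being tested depended on the higher group. In RNA-seq libraries of Ctrl cells the level per kb of exon fell in the order TNFSF9 at 28.7 ± 1.47 CPM per kb (SD, n = 3), TNFSF4 at 3.92 ± 0.23, TNFSF18 at 1.70 ± 0.12, TNFSF12 at 1.57 ± 0.22, TNFSF10 at 0.0076 ± 0.0072 and TNFSF15 at 0.0024 ± 0.0021. TNFSF18 and TNFSF12 overlapped in that order, as did TNFSF10 and TNFSF15. In KO cells the order was TNFSF9 at 21.3 ± 1.35 CPM per kb, TNFSF12 at 2.35 ± 0.16, TNFSF4 at 0.051 ± 0.019, TNFSF10 at 0.0238 ± 0.0069, TNFSF18 at 0.0094 ± 0.0083 and TNFSF15 at 0.0022 ± 0.0019. TNFSF4, the second ligand in Ctrl, was the third in KO and far below TNFSF12, and TNFSF18 and TNFSF15 overlapped.

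The difference of TNFSF4 between genotypes was larger in total than in newly made RNA. Over 12 libraries the KO effect in 4sU-seq minus that in RNA-seq was 2.49 ± 0.32 on the log2 scale for TNFSF4 and 0.11 ± 0.27 for TNFSF9, whose 95% interval was -0.47 to 0.69. Of 15863 genes tested for this difference, 2.14% passed, 1.12% higher in 4sU-seq, and TNFSF4 is counted among these; the value was used in choosing it, so nothing is read from the count. Under ERCC scaling the TNFSF4 value was 2.68 ± 0.60, but TNFSF4 was then no longer called, and 7 genes in all were. On log2(CPM + 0.5), the level of TNFSF4 in 4sU-seq minus that in RNA-seq was 0.86 in KO and -0.54 in Ctrl. The median of all genes was 0.21 in KO and 0.19 in Ctrl. With a pseudocount of 0.1 the TNFSF4 value in KO was 1.55, since few counts stand behind it. TNFSF9 had -0.53 in KO and -0.61 in Ctrl.

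The genes whose levels went most like TNFSF4 over the 12 libraries, after each assay's mean was removed, were BCAR3 (Pearson r = 0.997), DSC3 (0.996), MB21D2 (0.996), ABLIM1 (0.994) and SERPINE2 (0.994), the highest of 10669 genes ranked. The libraries share genotype and assay, so a gene that differs by genotype alone in both assays scores high here. DSC3, a desmosomal cadherin, had 5.37 CPM in KO and 44.8 CPM in Ctrl RNA-seq libraries. BCAR3, an adaptor of integrin signalling, had 26.2 CPM in KO and 75.0 CPM in Ctrl RNA-seq libraries. For TNFSF9 the highest were TIMM44 (0.992) and MESDC1 (0.992).

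The receptors of the 6 ligands moved in both directions. Of 11 receptors, 9 were tested in 4sU-seq and 7 in RNA-seq. In RNA-seq 3 rose, 3 fell and 1 did not pass (median log2 fold change -0.17, against 0.00 over all genes); with library size alone, 3 rose, none fell and the median turned to 0.01. In 4sU-seq TNFRSF10B and TNFRSF10C rose and 7 did not pass (median 0.22, against 0.05 over all genes); without KO replicate 2, 2 rose, 2 fell and the median turned to -0.12. TNFRSF10C, a decoy receptor for TNFSF10 that lacks a death domain, rose most: it had 4.89, 5.03 and 4.94 CPM in KO RNA-seq libraries, against 0.888, 0.628 and 0.941 CPM in Ctrl (2.59 ± 0.15, adjusted p = 2.85e-08, edgeR). In 4sU-seq it had 15.3, 14.5 and 15.3 CPM in KO libraries, against 4.42, 4.07 and 4.36 CPM in Ctrl (1.81 ± 0.11, adjusted p = 0.000477). The rise was present in every library of both assays.

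TNFRSF10D, the other membrane decoy, rose in RNA-seq, with 172, 172 and 178 CPM in KO libraries, against 104, 98.1 and 104 CPM in Ctrl (0.77 ± 0.05, adjusted p = 1.38e-07, edgeR). In 4sU-seq it had 136, 163 and 132 CPM in KO libraries, against 141, 141 and 135 CPM in Ctrl, which overlap (0.05 ± 0.11, adjusted p = 0.811). The death receptor TNFRSF10A fell in RNA-seq, with 52.7, 53.7 and 54.9 CPM in KO libraries, against 67.0, 61.9 and 66.5 CPM in Ctrl (-0.28 ± 0.06, adjusted p = 0.00103, edgeR); this call was lost with library size alone (-0.09, adjusted p = 0.156) and under ERCC scaling (-0.19, adjusted p = 0.155). TNFRSF10B, the second death receptor, had 123, 119 and 118 CPM in KO RNA-seq libraries, against 137, 132 and 136 CPM in Ctrl (-0.17 ± 0.05, adjusted p = 0.0157, edgeR), and this call was lost and the sign turned when scaled by library size alone (0.01, adjusted p = 0.842), and it was lost under ERCC scaling (-0.09, adjusted p = 0.497) and without KO replicate 2 or 3 or Ctrl replicate 1 or 3 (adjusted p of 0.0501 to 0.0788). In 4sU-seq TNFRSF10B rose, with 212, 217 and 197 CPM in KO libraries, against 166, 169 and 164 CPM in Ctrl (0.33 ± 0.09, adjusted p = 0.0463, edgeR), but the call was lost with DESeq2 size factors (adjusted p = 0.0799), under ERCC scaling (0.562), without the filter (0.185) and without any one of the libraries other than KO replicate 2 (0.0658 to 0.243).

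Of the receptors of the costimulatory ligands, TNFRSF4 and TNFRSF9 held few counts and TNFRSF18 rose in RNA-seq. TNFRSF4, the receptor of TNFSF4, had 34 4sU-seq counts over KO libraries and 35 over Ctrl, and 10 RNA-seq counts in each genotype. TNFRSF9, the receptor of TNFSF9, had 11 RNA-seq counts over KO libraries and 9 over Ctrl. TNFRSF18, the receptor of TNFSF18, was expressed and rose in RNA-seq, with 20.9, 22.8 and 22.5 CPM in KO libraries, against 16.6, 15.7 and 16.8 CPM in Ctrl (0.43 ± 0.06, adjusted p = 7.45e-05, edgeR). TNFRSF12A, the receptor of TNFSF12, fell in RNA-seq, with 107, 112 and 108 CPM in KO libraries, against 122, 140 and 144 CPM in Ctrl (-0.31 ± 0.07, adjusted p = 0.00181), a call lost with library size alone (-0.12, adjusted p = 0.109) and under ERCC scaling (-0.22, adjusted p = 0.0666). TNFRSF25, the receptor of TNFSF15, had 7.87 CPM in KO and 9.23 CPM in Ctrl RNA-seq libraries and passed in neither assay. TNFRSF6B, a soluble decoy for TNFSF15, was listed at 0 in every library of both tables, and its span is wholly covered by other genes.

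Among 18 other receptors of the family, 12 were tested in RNA-seq, where 8 rose, 3 fell and 1 did not pass (median 0.57), and 13 in 4sU-seq, where 5 rose, 2 fell and 6 did not pass (median 0.45, against 0.05 over all genes). TNFRSF21 fell in both assays, with 178 CPM in KO and 296 CPM in Ctrl 4sU-seq libraries (-0.73 ± 0.10, adjusted p = 0.00479, edgeR), and 75.5 CPM in KO and 138 CPM in Ctrl RNA-seq libraries (-0.87 ± 0.05, adjusted p = 3.83e-08). TNFRSF19 rose in both (1.28 ± 0.20 in 4sU-seq, adjusted p = 0.00754, and 1.27 ± 0.20 in RNA-seq, adjusted p = 0.00016, edgeR), and so did TNFRSF11A, the RANK receptor (0.78 ± 0.11, adjusted p = 0.00515, and 0.83 ± 0.14, adjusted p = 0.000336), and the neurotrophin receptor NGFR (1.03 ± 0.17, adjusted p = 0.0088, and 0.74 ± 0.10, adjusted p = 5.25e-05). TNFRSF17, a receptor of TNFSF13 that is known from plasma cells, rose in RNA-seq on few counts, 55 over KO libraries and 8 over Ctrl (2.69 ± 0.41, adjusted p = 0.000103, edgeR). It passed the filter through its KO libraries alone, so being tested depended on the higher group. In 4sU-seq, where its span is wholly covered, TNFRSF17 was listed at 0. TNFRSF1B, the second TNF receptor, rose in 4sU-seq, with 0.413, 0.431 and 0.452 CPM in KO libraries, against 0.141, 0.121 and 0.158 CPM in Ctrl (1.62 ± 0.18, adjusted p = 0.00287).

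Of 12 other ligands, 4 were tested in RNA-seq, where TNFSF13 and EDA rose and CD70 and TNFSF13B did not pass. EDA, the ectodysplasin ligand of skin appendages, had 8.16, 7.42 and 7.43 CPM in KO libraries, against 4.71, 4.87 and 5.03 CPM in Ctrl (0.66 ± 0.09, adjusted p = 5.27e-05, edgeR). In 4sU-seq 4 were tested and none passed in edgeR, while 3 of them were higher at an unadjusted p under 0.05 and 3 in DESeq2.

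Downstream of the receptors, 23 adaptor and signalling genes were tested in both assays. In RNA-seq 4 rose, 9 fell and 10 did not pass (median -0.11), and in 4sU-seq 1 rose, 5 fell and 17 did not pass (median -0.01); with ERCC scaling or library size alone the 4sU-seq median was 0.19 or 0.08, and with library size alone the RNA-seq median was 0.07, with 7 risen and 4 fallen. The gene that rose in both was BIRC3, an inhibitor of apoptosis and a known NF-kappaB target, with 5.41, 4.06 and 5.13 CPM in KO RNA-seq libraries, against 2.02, 2.00 and 2.14 CPM in Ctrl (1.24 ± 0.14, adjusted p = 8.8e-06, edgeR), and 2.06, 0.958 and 1.87 CPM in KO 4sU-seq libraries, against 0.352, 0.242 and 0.450 CPM in Ctrl (2.23 ± 0.36, adjusted p = 0.00929). TNFAIP3, which encodes the A20 ubiquitin editor that restrains NF-kappaB and is itself a known target of it, fell in both assays (-0.52 ± 0.13 in 4sU-seq, adjusted p = 0.035, and -0.74 ± 0.10 in RNA-seq, adjusted p = 3.97e-05, edgeR). TRAF2, an adaptor that recruits BIRC2 and BIRC3 to receptors, fell in both (-0.83 ± 0.17, adjusted p = 0.0198, and -0.43 ± 0.05, adjusted p = 1.58e-05). The kinase gene RIPK1 fell in RNA-seq (-0.50 ± 0.07, adjusted p = 3.77e-05), as did MAP3K14, the NIK kinase, listed under an ID without GENCODE 29 coordinates (-0.53 ± 0.07, adjusted p = 5.18e-05), while BIRC2 rose (0.50 ± 0.07, adjusted p = 8.93e-05).

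Of the 9 caspases and regulators of death receptor signalling, 8 were tested in RNA-seq, where 2 rose and 4 fell (median -0.18, and 0.00 with library size alone), and 7 in 4sU-seq, where CASP10 rose, MLKL fell and 5 did not pass. CASP10, an initiator caspase, rose in both assays, with 9.30, 9.54 and 8.41 CPM in KO 4sU-seq libraries, against 1.56, 1.52 and 1.45 CPM in Ctrl (2.59 ± 0.13, adjusted p = 0.000174, edgeR), and 3.17, 3.72 and 3.89 CPM in KO RNA-seq libraries, against 0.395, 0.568 and 0.876 CPM in Ctrl (2.59 ± 0.22, adjusted p = 6.3e-07). Its paralogue CASP8 rose in RNA-seq by less (0.21 ± 0.06, adjusted p = 0.0121), a call lost without RNA-seq KO replicate 3. CFLAR, the inhibitor of caspase activation at death receptors, fell in RNA-seq (-0.44 ± 0.06, adjusted p = 3.16e-05), and MLKL, the executor of necroptosis, fell in both assays (-0.65 ± 0.14, adjusted p = 0.0204, and -0.47 ± 0.08, adjusted p = 0.000174).

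Over all 5 lists, which hold 73 genes, 38 of 54 tested passed in RNA-seq (19 higher and 19 lower), beside 48.4% of all genes. In 4sU-seq 17 of 56 passed (9 higher and 8 lower), beside 19.6% of all genes. The 4sU-seq count rested on single libraries: leaving out KO replicate 2 gave 38, KO replicate 1 gave 9 and KO replicate 3 gave 11, while Ctrl replicates 1, 2 and 3 left out in turn gave 7, 8 and 9. The 4sU-seq calls on TRAF2, TNFAIP3 and MLKL were lost without KO replicate 1, without KO replicate 3 and without each Ctrl replicate (TNFAIP3 also with library size alone), those on TNFRSF19 and BIRC3 without Ctrl replicate 1, and that on NGFR without Ctrl replicate 2 or 3. Under ERCC scaling TNFRSF10C and CASP10 were the 2 that kept their 4sU-seq call, and every other 4sU-seq call named here for these lists was lost.

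**Figure D4:**
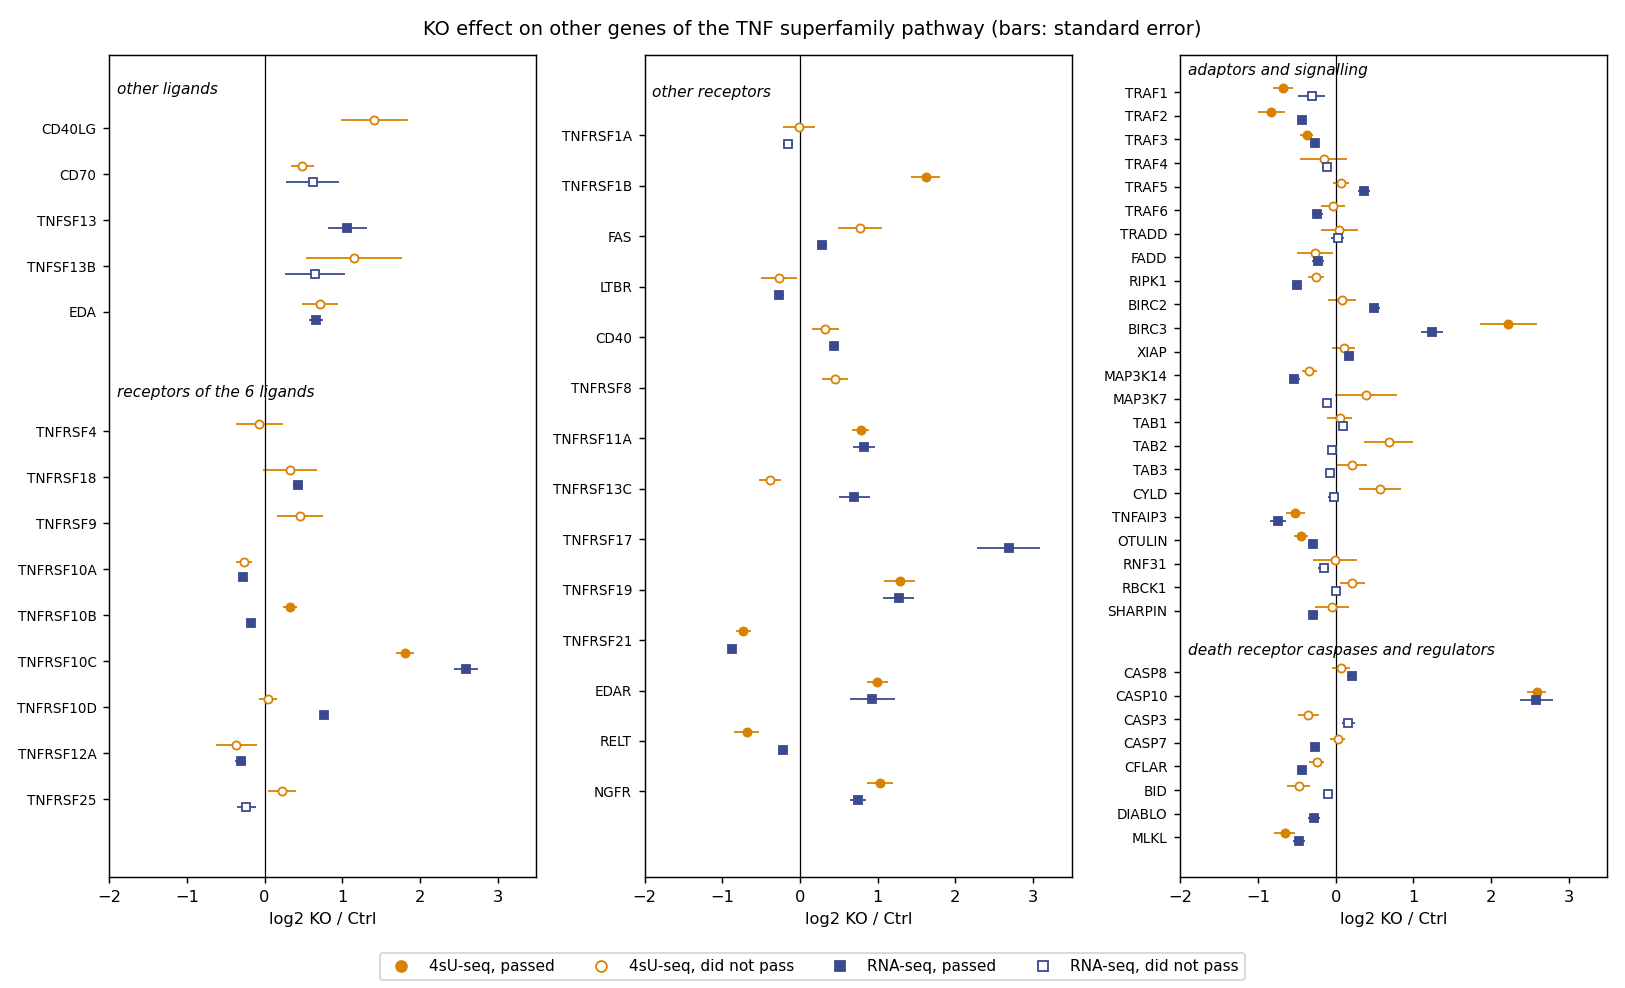
Log2 fold change of KO over Ctrl with SE for the genes of the 5 lists tested in at least 1 assay (circles, 4sU-seq; squares, RNA-seq; filled where the edgeR test passed at an adjusted p under 0.05). TNFRSF10C and CASP10 lie far to the right in both assays, TNFRSF17 stands at 2.69 in RNA-seq, and TNFRSF21 lies left of 0 in both.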

How the data were processed

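Total and 4sU-labelled RNA of HCT116 cells was analysed from 2 tables of raw counts per gene that the authors deposited, 1 per assay, with 56104 gene IDs and 92 ERCC spike-in species. Per the submitters' processing notes, FastQC 0.11.2, HISAT2 2.1.0, SAMtools 1.3, featureCounts and the build hg38 were used; annotation, counting feature and strand setting: not given in the sources used here. GENCODE 29 matched 52890 of the IDs (94.3%) and gave spans and exons. TNF, LTA, LTB, TNFRSF14 and MAP3K14 stand in the tables under IDs with no coordinates there, which may lie on alternate loci, so low counts of these IDs are not read as the level of the gene.

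Each assay was fitted alone: ERCC species left out, genes kept by filterByExpr (minimum count 10), TMM scaling, and the two-sided quasi-likelihood test of edgeR 4.0.16 with Benjamini-Hochberg adjustment over all genes tested, threshold 0.05. The difference between assays was the interaction of genotype and assay over 12 libraries, for genes kept in both. SE is the log2 fold change divided by the root of F. No fold is given where a group held 3 counts or fewer. There, summed counts are set against TMM-scaled library sizes with exact 95% intervals, which cover counting error only. Level ratios used log2(CPM + 0.5).

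The members, lists and tests were chosen with earlier results of these data known. Named genes are the 6 ligands, PPM1G, and up to 6 called genes with the smallest p per list and comparison, likewise for the locus; receptors of the ligands and genes named as not called were added after their values were seen. Alternatives were a replicate block, leaving out each library, no filter, library size alone, scaling by ERCC counts, and the size factors and Wald test of DESeq2 1.42.0. A fit with the first and second RNA-seq KO replicates summed as 1 library was chosen after seeing the data. The fits were tested on simulated data. Figures were drawn with matplotlib 3.10.9 in Python 3.11.15, and fits were run in R 4.3.3. A gene that met the rule for names is not reported here. Reads were not analysed here.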

Additional observations from a re-analysis of the deposited data

Results flagged for a closer look

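The effect of the knockout in 4sU-seq minus that in RNA-seq differed from 0 for 3 TRAIL receptor genes by the interaction test. They were 3 of 51 genes of the 5 lists tested for it (5.88%), beside 2.14% of all 15863 genes. On the log2 scale (SE) it was 0.50 ± 0.09 for TNFRSF10B (adjusted p = 0.0234, edgeR), -0.78 ± 0.18 for TNFRSF10C (adjusted p = 0.0497) and -0.72 ± 0.12 for TNFRSF10D (adjusted p = 0.0143). The value of TNFSF4, 2.49 ± 0.32, took part in its choice and is given as a description. All 3 receptor calls were lost under ERCC scaling, without 4sU-seq Ctrl replicate 1 and without any one of the RNA-seq KO replicates, with adjusted p of 0.0506 to 0.146 when a library was left out in these ways and 1.00 under ERCC scaling. Their values stayed between 0.40 and 0.54, between -0.91 and -0.65 and between -0.89 and -0.67 over all libraries left out in turn, in the order named above. Leaving out any other library cost at least 1 of the 3 calls, except 4sU-seq KO replicate 2. Without the filter the calls on TNFRSF10B (adjusted p = 0.151, edgeR) and TNFRSF10C (0.0717) were lost. That on TNFRSF10C was also lost with the replicate block (0.0539), and that on TNFRSF10B with library size alone (0.0725).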

How the results depend on the processing

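The values of TNFSF4 took part in its choice, so their stability shows nothing of its own. Its 4sU-seq log2 fold change was -3.45 ± 0.51 (SE) under ERCC scaling, against -3.74 ± 0.22 in the main fit. Its RNA-seq value was -6.03 with library size alone and -6.49 to -6.00 with each library left out. The ligands counted as called in 4sU-seq were not so in all fits: TNFSF10 was not called under 7 of 12 alternatives and TNFSF15 under 5, and TNFSF9 was called without 4sU-seq KO replicate 2. TNFRSF10B in RNA-seq turned to 0.0131 with library size alone. Of the calls on list and locus genes named under the rule, 20 of 22 in 4sU-seq and 8 of 38 in RNA-seq were lost under ERCC scaling, and 4 and 5 with library size alone.

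As a share of gene counts, ERCC counts were 0.0324%, 0.0560% and 0.0230% in KO 4sU-seq libraries, against 0.0347%, 0.0457% and 0.0308% in Ctrl. In RNA-seq libraries they were 0.475% to 0.581%. The part of this spread in the results under ERCC scaling was not tested. All genes called in 4sU-seq (4166) became 716 under ERCC scaling and 6907 with the replicate block, and 1322 to 11673 with each library left out. The list genes called there (17) became 2 under ERCC scaling, 26 by the DESeq2 Wald test, 26 with the block and 7 to 38 with each library left out. Genes called for the difference between assays (340) became 7 under ERCC scaling, 185 without the filter, 1060 by DESeq2, 663 with the block and 90 to 5095 with each library left out (5095 without 4sU-seq KO replicate 2). The list genes called for it (3) became 0, 1, 5 and 4 under the same 4 settings and 0 to 21 with each library left out. The counts in RNA-seq stayed within 1.5 times, at 8145 to 10151 of all genes and 33 to 39 of the lists with each library left out. The share of higher calls was 64.4% in 4sU-seq, 93.9% under ERCC scaling and 78.3% with library size alone, and 44.6% in RNA-seq, 61.6% and 72.5%; the median of all genes moved from 0.05 to 0.27 in 4sU-seq under ERCC scaling and from 0.00 to 0.19 in RNA-seq with library size alone. The cause of these shifts was not tested. The labels used here give replicate numbers but name no pairing between groups, and the main fits used none. In 4sU-seq, libraries of the same number had correlations of deviations of -0.07, 0.71 and 0.70. Across numbers these ran from -0.72 (KO 2 with Ctrl 3) to 0.59 (KO 1 with Ctrl 3). In RNA-seq the same-number values were -0.04, 0.16 and 0.23. Whether 4sU-seq libraries of the same number were handled together was not tested, and the block changed the 4sU-seq calls as given above. Depth limits TNFSF10, TNFSF15 and TNFSF18, which held few counts in at least 1 group.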
